A study of Mus musculus with 2 samples.

Results

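The genes described here are 32 enzymes and regulators of sterol and fatty acid synthesis, taken by symbol from the feature list of the matrices, where all 32 were found among 22383 features. They were grouped by role into a mevalonate arm of 7 genes, a squalene and sterol arm of 11 genes, 5 genes of sterol sensing, 8 genes of fatty acid synthesis and Stard4, which carries sterols between membranes. Their values come from single-cell RNA-sequencing of pancreatic islets of mice aged 5 weeks. One library was labelled wildtype and is called control, and the other was labelled TBL/RBKO, written TBL/RβKO. Each library held 150 islets pooled from 4 mice, and islets stayed in culture overnight (37 °C, medium with 10% serum) before dissociation and droplet capture with 3′ chemistry. TBL/RβKO mice carried loxP-flanked alleles of Tbl1x and Tbl1xr1, which encode transcription co-factors, and Cre recombinase placed at the Ins1 gene, so that deletion starts when β-cells begin to transcribe insulin. The controls were littermates without Cre. With 1 library per group there was no replicate, no test across samples could be made, and every value describes these 2 libraries.

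The mevalonate arm turns acetyl-CoA into isoprenoid units, and the squalene and sterol arm joins and folds these into the sterol ring and trims it to cholesterol. Transcription of both arms is driven mainly by SREBP-2 (Srebf2), whereas SREBP-1 (Srebf1) acts more on fatty acid synthesis. Both precursors are held in the endoplasmic reticulum by Scap and the Insig proteins when sterols are plentiful, and Insig1 is itself a target of the pathway. In β-cells citrate leaving the mitochondria feeds the same cytosolic acetyl-CoA pool through Acly.

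The sterol regulatory element that SREBPs bind and the CCAAT box bound by NF-Y, which often works beside it, were searched as letters in the 250 bases before each RefSeq gene start, on both strands. TCACNCCA occurred in 3 of the 26 members with an entry (11.5%), against 4.20% of 27025 genes, and those members were Hmgcs1, Msmo1 and Srebf2. CCAAT occurred in 21 of 26 (80.8%), against 37.5% of all genes. A match is a description of the letters only, and Scd1, Scd2, Sqle, Fdft1, Fdps and Stard4 were not analysed here. The windows below are shown because 3 of them hold the TCACNCCA letters and the genes behind them differed widely in β-cells, from Hmgcs1 with the largest ratio of the 4 to Mvk near the median gene. Letters are from the RefSeq table of GRCm38.p6, positions are from an exact match in GRCm39, each window is read 5′ to 3′ on the gene's own strand and ends before the gene's annotated start in GENCODE M39 except for Msmo1, whose window lies just inside it, and capitals mark TCACNCCA and CCAAT or its complement ATTGG. The Hmgcs1 window is chr13:120151687-120151886 on the plus strand, Msmo1 chr8:65186767-65186796 on the minus strand, Srebf2 chr15:82031270-82031381 on the plus strand and Mvk chr5:114582130-114582266 on the plus strand.
Hmgcs1: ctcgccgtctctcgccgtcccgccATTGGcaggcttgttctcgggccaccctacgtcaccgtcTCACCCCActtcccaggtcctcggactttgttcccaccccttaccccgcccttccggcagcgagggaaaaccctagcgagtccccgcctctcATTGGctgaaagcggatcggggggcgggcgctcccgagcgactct
Msmo1: actattcTCACTCCAtccgcgcagCCAATg
Srebf2: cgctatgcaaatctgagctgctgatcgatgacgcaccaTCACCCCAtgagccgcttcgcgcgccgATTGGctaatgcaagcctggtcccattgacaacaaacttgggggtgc
Mvk: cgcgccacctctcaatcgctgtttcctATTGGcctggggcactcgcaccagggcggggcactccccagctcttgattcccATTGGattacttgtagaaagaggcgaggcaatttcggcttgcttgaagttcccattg

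The 2 libraries held 7067 and 5833 barcodes (control first) with 241434108 and 185062206 UMIs, the molecular tags that count captured transcripts, and 14 barcodes occurred in both. After the filter on barcodes (more than 2500 detected genes, under 10% mitochondrial UMIs), 4747 and 4179 cells remained, and each was placed in the class of its largest hormone of at least 100 UMIs per 10000. This gave 2877 and 1338 β-cells (Ins1 and Ins2), 1284 and 1546 α-cells (Gcg), 223 and 374 δ-cells (Sst), 259 and 495 PP-cells (Ppy) and 104 and 426 cells outside these classes. Insulin made up 49.6% of the UMIs of β-cells in control but 27.9% in the other library, so levels are given in CPM, here the number per 1e6 UMIs once 7 hormone genes and the mitochondrial genes are left out of the total. The targeted genes went against the label: in β-cells Tbl1x stood at 233 and 616 CPM and Tbl1xr1 at 48.1 and 226, higher in the library labelled TBL/RβKO. A sum over the whole gene cannot tell a transcript with the loxP-flanked part from one without it. Cre UMIs were found only in the library labelled TBL/RβKO, in 274 of its 1338 β-cells (20.5%), 13 of 1546 α-cells (0.841%), 2 of 374 δ-cells (0.535%) and 15 of 495 PP-cells (3.03%), at a median of 38667 hormone-free UMIs per β-cell and 14547 per α-cell. Cre was placed at Ins1, and the source of the Cre UMIs in α-, δ- and PP-cells was not tested. Defining markers were not steady within the β-cell class, where Mafa stood at 1112 and 150 CPM and Slc2a2 at 758 and 97.1.

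In β-cells, 17 of the 30 members that reached a mean of 10 CPM were at least 1.5-fold higher in the library labelled TBL/RβKO and 0 were 1.5-fold lower. Among all 9428 genes tested in β-cells 9.38% were higher and 5.84% lower by that fold. Scd1 and Acat2 were under 10 CPM in control and passed the level only through the library in which they are high, so that they could hardly enter the count other than as higher. Ratios are log2 values relative to the median gene of the class, whose own log2 ratio was -0.16 in β-cells, 0.02 in α-cells, -0.01 in δ-cells and -0.07 in PP-cells. The median of the members was 0.64 on this scale (median of the counting bounds 0.57 to 0.74), with 27 of 30 above the median gene, and the relative ratios of all genes had an SD of 0.60. Intervals are 95% exact intervals for counting error only and do not cover differences between mice or pools. Brackets after a median of members, here and for the other classes, hold the medians of the members' lower and upper bounds and are not an interval for the median. The 17 became 13 of 30 without subtraction of the median, when 6.85% of all genes were higher and 9.94% lower, and Sc5d, Dhcr7, Insig2 and Fasn were the 4 that dropped out. With all UMIs as the denominator 18 of 24 were higher, against 20.3% of genes higher and 2.66% lower. In sums over a class, fewer cells with a transcript and less of it per cell cannot be told apart.

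Other values moved with the library in the β-cell class. The median β-cell held 21450 hormone-free UMIs in control and 38667 in the other library. No marker of the other cell types was at 0 in either library, and the summed immune markers stood at 184 and 62.6 CPM, endothelial at 28.4 and 16.1, stromal at 52.9 and 137, and ductal and acinar at 73.0 and 394. Krt19, at 2.69 and 112, made up only part of the ductal and acinar difference. The PP-cell markers stood at 9187 and 58010 CPM and the α-cell markers at 1536 and 3294. The part of depth and of these markers in the ratios was not tested beyond the splits of the β-cells given further on.

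**Figure D1:**
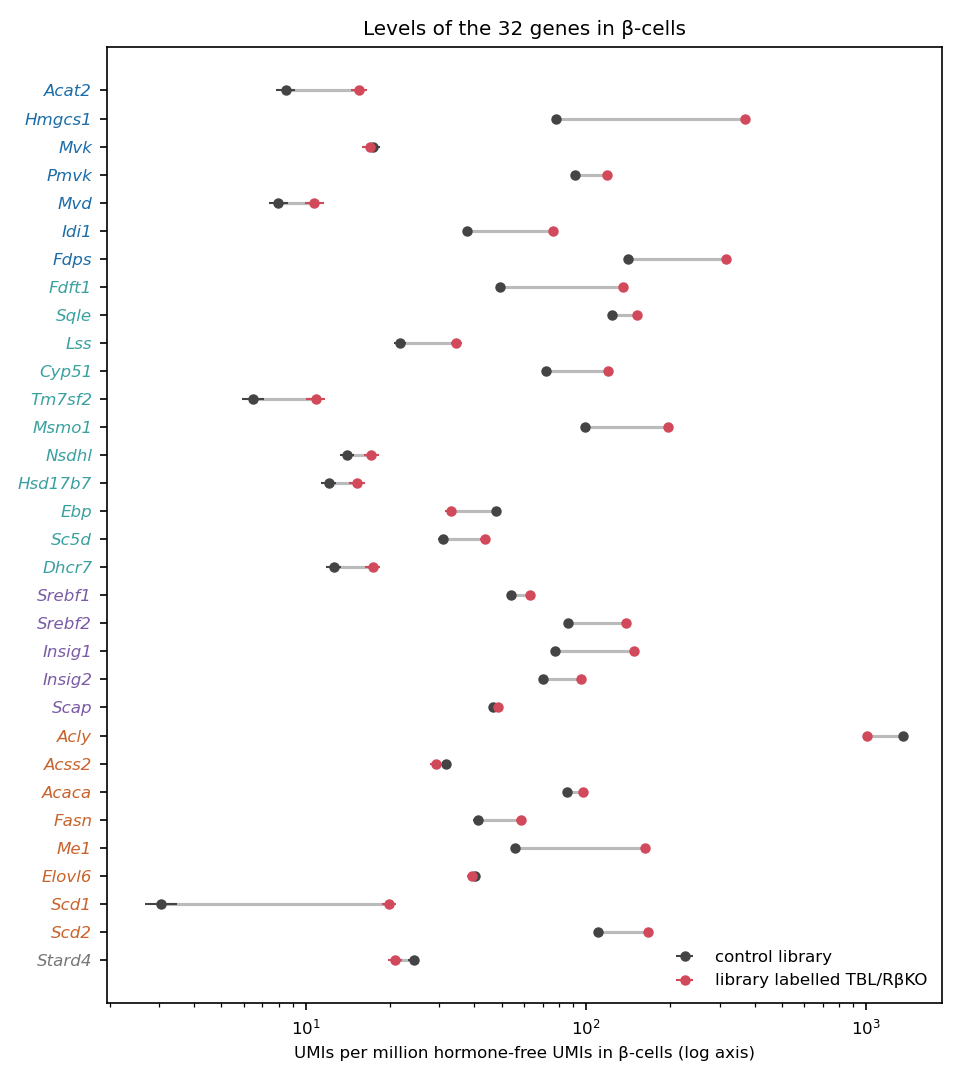
Levels of the 32 genes in β-cells, in hormone-free CPM on a log axis, for the control library (grey) and the library labelled TBL/RβKO (red), with 95% Poisson intervals and gene names coloured by role (blue mevalonate, teal squalene and sterol, purple sensing, orange fatty acid, grey transport). The red point lies to the right for most genes, widest apart for Scd1 (3.05 and 19.8) and Hmgcs1 (78.3 and 371), and to the left for Acly, Ebp, Stard4, Acss2, Mvk and Elovl6.

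The mevalonate arm was the group with the largest median in β-cells. Of its 6 tested genes 4 were 1.5-fold higher, with a median relative log2 ratio of 1.10, and its summed level was 382 CPM in control against 925 in the library labelled TBL/RβKO. Of these 4, Acat2 passed the level only through the library in which it is high, and it also entered the median. Beside this count, and those of the other groups below, stands the 9.38% of all genes tested in β-cells that were higher. Hmgcs1, which makes HMG-CoA from acetoacetyl-CoA (ENSMUSG00000093930, GRCm39 chromosome 13, 120151915 to 120170470), stood at 78.3 (76.4 to 80.4) in control and 371 (366 to 376) in the other library. That is a relative log2 ratio of 2.40 (2.36 to 2.44), or 5.29-fold, from 5942 and 21320 UMIs, and only 55 of the 9428 genes tested had a higher value. Fdps, which makes farnesyl diphosphate (ENSMUSG00000059743, chromosome 3, 89000888 to 89019213), stood at 141 and 316, a relative log2 ratio of 1.32 (1.29 to 1.35). Idi1, which isomerises the isoprenoid unit, stood at 37.7 and 76.2, a ratio of 1.17 (1.10 to 1.24).

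The other members of this arm were less far apart. Acat2, the cytosolic acetoacetyl-CoA thiolase at the entry to the pathway, stood at 8.48 and 15.5 CPM (1.03, interval 0.88 to 1.18), and its neighbouring copy Acat3 held only 5 and 2 UMIs. Pmvk, the second kinase of the arm, stood at 91.0 and 119 (0.55), just inside the fold. Mvk, the first kinase, stood at 17.4 and 17.0, and its relative ratio of 0.12 (upper bound 0.24) turned to -0.04 when the median was not subtracted. Mvd, the decarboxylase, fell short of the level needed for a test in β-cells (7.99 and 10.7). Within 1 arm, then, the ratios ran from near the median gene to among the largest of all members.

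The squalene and sterol arm was higher across most of its steps, by less than the mevalonate arm. Of its 10 tested genes 6 were 1.5-fold higher, with a median of 0.64, and the summed level was 489 and 776 CPM. Fdft1, squalene synthase and the first committed step (ENSMUSG00000021273, chromosome 14, 63382189 to 63417027), was the highest of the arm, at 49.4 (47.8 to 51.0) and 136 (133 to 139), a relative log2 ratio of 1.62 (1.56 to 1.67). Msmo1, which removes the methyl groups at carbon 4, stood at 99.2 and 196 (1.15, interval 1.10 to 1.19). Cyp51, the lanosterol demethylase, stood at 71.7 and 120 (0.90), and Lss, which closes the ring, at 21.7 and 34.4 (0.83). These 4 genes were past the fold by a margin wider than their counting intervals.

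Sc5d, the sterol desaturase, was at 30.8 and 43.7 CPM (0.66) and Dhcr7, a terminal reductase, at 12.6 and 17.3 (0.62), both just outside the fold. Sqle, the epoxidase that limits the arm, was at 123 and 152 (0.46), and Hsd17b7 and Nsdhl, which act with Msmo1 at carbon 4, had ratios of 0.50 and 0.45, all inside the fold. Ebp, the sterol isomerase on the X chromosome, ran the other way, with 47.9 (46.4 to 49.5) in control against 33.0 (31.5 to 34.5) in the library labelled TBL/RβKO, a ratio of -0.38 (-0.46 to -0.30), also inside the fold. Ebp kept that sign under the 3 scalings, at -0.54 without subtraction of the median and -0.09 with all UMIs as the denominator. Tm7sf2, a sterol reductase, was too low for a test (6.47 and 10.9) and overlaps Vps51 on its own strand, so reads could be split between them.

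**Figure D2:**
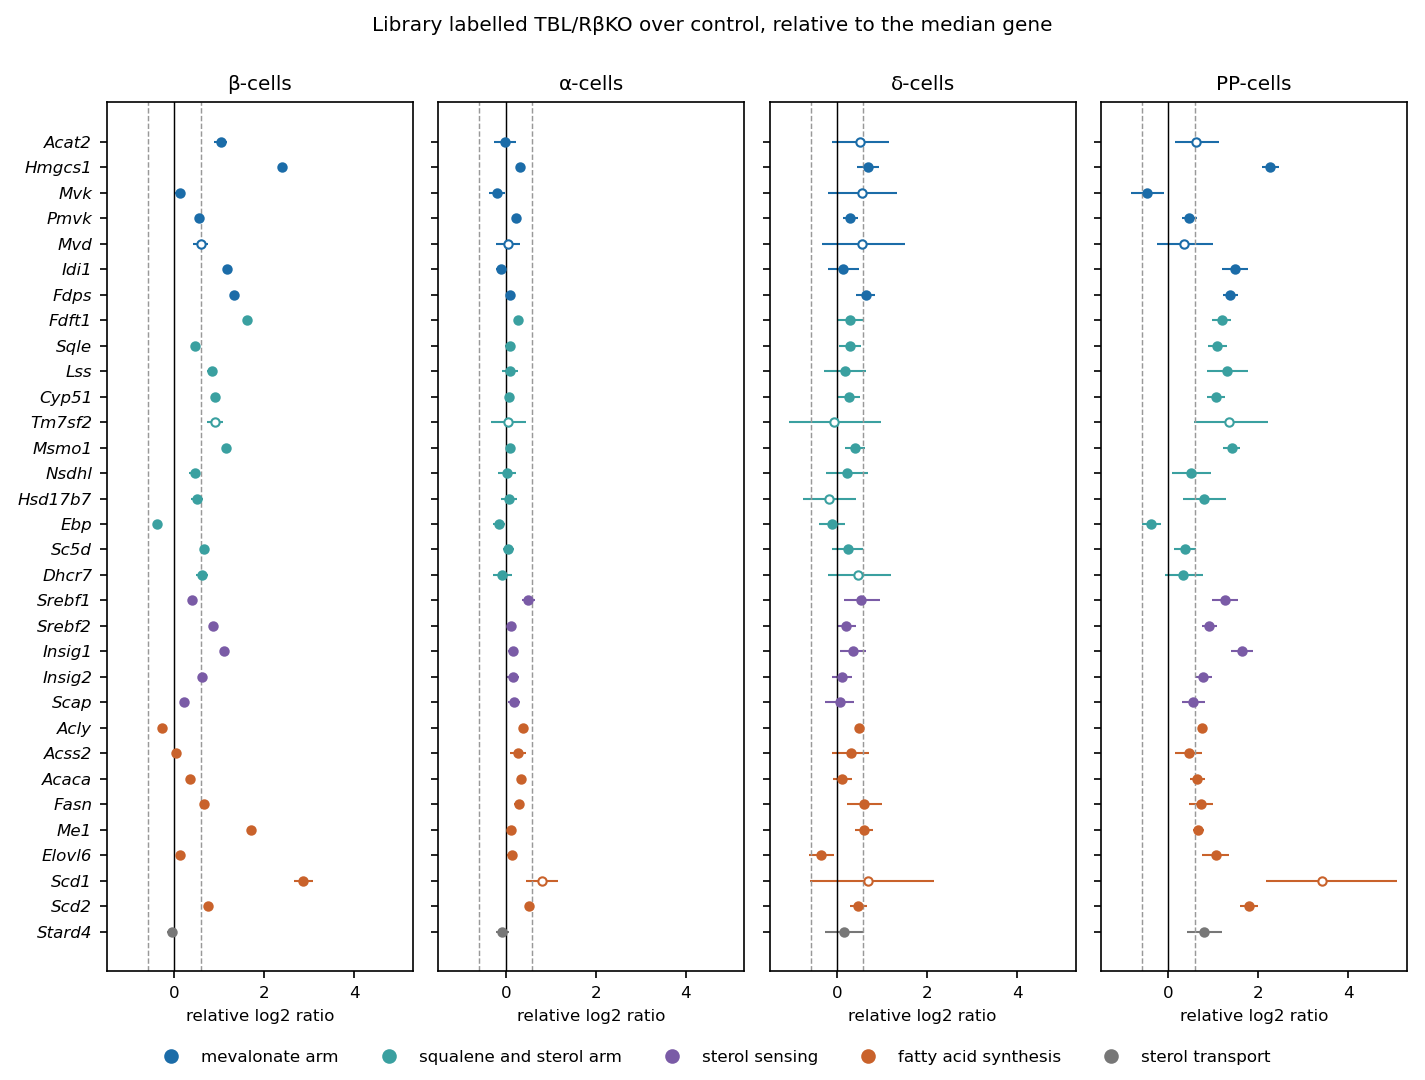
Relative log2 ratio of each gene (library labelled TBL/RβKO over control, less the median gene) in β-, α-, δ- and PP-cells, with 95% counting intervals, colours by role, open circles for genes under a mean of 10 CPM, and dashed lines at the 1.5-fold limits. Most points of the β- and PP-cell panels lie right of 0, whereas those of the α-cell panel gather within the limits.

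Among the 5 genes of sterol sensing, 3 were 1.5-fold higher, with a median of 0.61. Insig1, which holds Scap in the endoplasmic reticulum (ENSMUSG00000045294, chromosome 5, 28276315 to 28283668), stood at 77.5 (75.5 to 79.5) and 148 (145 to 151) CPM, a relative log2 ratio of 1.10 (1.05 to 1.14). Srebf2, the factor for the sterol arms, stood at 86.3 and 139 (0.85, interval 0.80 to 0.90). Insig2 stood at 70.0 and 95.6 (0.61), close to the limit. Srebf1 and Scap stayed inside the fold, at 54.1 and 63.3 (0.39) and at 46.5 and 48.4 (0.22).

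Fatty acid synthesis was the most uneven group in β-cells, with 4 of 8 genes higher, a median of 0.51 and a summed level of 1723 and 1574 CPM. Acly, which makes cytosolic acetyl-CoA from citrate, supplied 1356 and 1002 of that sum (relative log2 ratio -0.28, interval -0.29 to -0.26). With all UMIs as the denominator the Acly ratio was 0.02, so its direction depended on the scaling. Scd1, a stearoyl-CoA desaturase, stood at 3.05 (2.67 to 3.46) and 19.8 from 231 and 1138 UMIs, a ratio of 2.86 (2.65 to 3.07), and reached the level for a test only through the second of these. The neighbouring Scd3 and Scd4 held 175 and 99 and 44 and 46 UMIs. Scd2, the other desaturase, stood at 110 and 166 (0.75).

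Me1, malic enzyme, which supplies NADPH for lipid synthesis (ENSMUSG00000032418, chromosome 9, 86462646 to 86578104), stood at 55.9 (54.2 to 57.6) and 162 (159 to 165), a relative log2 ratio of 1.70 (1.64 to 1.75). Fasn, the fatty acid synthase, stood at 41.1 and 58.4 (0.67). Acaca, the acetyl-CoA carboxylase, stood at 85.6 and 97.3 (0.35), inside the fold. Elovl6, an elongase, and Acss2, which makes acetyl-CoA from acetate, were at 40.1 and 39.2 (0.13) and at 31.7 and 29.2 (0.04). The sterol carrier Stard4 was at 24.2 and 20.9 (-0.06). The signs of Mvk, Elovl6, Acss2, Stard4 and Acly, 5 of the 30 members tested, depended on the scaling.

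The same genes were closer together in α-cells. Of 29 tested members, 0 were higher and 0 lower by 1.5-fold, against 1.77% and 0.573% of the 9417 genes tested, and their median was 0.11 (0.03 to 0.24). The relative ratios of all genes had an SD of 0.25 in α-cells. Hmgcs1 stood at 118 (113 to 122) in control against 150 (145 to 155) CPM in the library labelled TBL/RβKO, a ratio of 0.33 (0.25 to 0.40). The largest tested values were Scd2 (109 and 158, ratio 0.51) and Srebf1 (30.4 and 43.8, ratio 0.50), followed by Acly (415 and 555, ratio 0.39), and the lowest was Mvk (23.2 and 20.8, ratio -0.18). Acly thus had opposite signs in α- and β-cells on this scale. The summed level of the mevalonate arm was 398 and 447 CPM and that of the squalene and sterol arm 485 and 524. Set between the 2 cell types of control, Hmgcs1 was lower in β-cells (78.3 against 118 in α-cells), as was Idi1 (37.7 against 62.6). Pmvk (91.0 against 59.2) and Fdps (141 against 115) ran the other way, inside the fold. The largest ratios between these cell types in control were those of Acly (1356 against 415) and, lower in β-cells, Hsd17b7 (12.1 against 23.6). In the library labelled TBL/RβKO Hmgcs1 was higher in β-cells (371 against 150), as was Idi1 (76.2 against 59.4), the latter inside the fold. Whether the β- and α-cell ratios differ was not tested, since each class had 1 library per group.

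In δ-cells 4 of 25 tested members were higher and 0 lower, against 2.48% and 1.77% of 9648 genes, with a median of 0.29 (0.02 to 0.58). These 4 were Hmgcs1 (46.5 and 74.4 CPM, ratio 0.69, interval 0.45 to 0.94), Fdps (62.3 and 96.1, ratio 0.64), Fasn (18.6 and 28.1, ratio 0.61) and Me1 (71.8 and 108, ratio 0.60). None of the 4 calls held throughout, and the higher count was 0 in 5 alternatives. Among these were δ-cells under 6000 genes, where 1 member was lower, against 2.39% of genes higher and 2.55% lower. The ratios there were -0.00067 for Hmgcs1, -0.089 for Fdps, 0.15 for Fasn and 0.19 for Me1. The lower count reached 3 when cells with a second hormone were left out, against 7.37% of genes lower. Elovl6 went the other way (44.0 and 34.2, ratio -0.35, interval -0.63 to -0.07).

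In PP-cells most of the tested members were higher. Of 28 tested members 20 were higher and 0 lower, against 9.12% and 5.76% of 9630 genes, with a median of 0.79 (0.63 to 1.13). Hmgcs1 stood at 41.8 (36.7 to 47.4) and 190 (183 to 198) CPM, a ratio of 2.26 (2.07 to 2.46), and Scd2 at 39.4 and 129 (1.79). Insig1 was at 27.1 and 80.0 (1.64), Idi1 at 19.5 and 51.5 (1.47) and Srebf1 at 21.2 and 48.2 (1.26). Acly stood at 355 and 566 (0.75), and the ratios of Srebf1 and Acly in β-cells were 0.39 and -0.28. Mvk (16.9 and 11.6, ratio -0.47) and Ebp (49.7 and 36.2, ratio -0.38) were the 2 tested members below the median gene, both inside the fold. Scd1 rested on only 5 and 120 UMIs and was under the level for a test. Lss and Hsd17b7 were under 10 CPM in control and passed only through the other library. The count of 20 was 13, against 4.44% of genes higher, when cells with a second hormone at 10% or more of the largest were left out, and 10 of the 20 stayed past the fold in every alternative chosen at the outset. The 10 that did not were Fdft1, Lss, Cyp51, Srebf2, Insig2, Acly, Acaca, Fasn, Me1 and Stard4.

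Markers moved with the PP-cell class too. Iapp, a β-cell product, stood at 13602 and 26908 CPM and Ucn3 at 13.5 and 45.6. Mafa, at 42.6 and 1.39, and Slc2a2, at 25.5 and 9.72, went the other way, and the remaining markers of the β-cell list were inside the fold. Tbl1x stood at 197 and 562. The summed stromal markers stood at 9.49 and 196 CPM, with Col1a1, Col3a1 and Dcn at 0 in control. Among PP-cells with insulin under 100 UMIs per 10000 (196 and 339 cells), 16 of 28 members were higher, against 5.48% of genes, with a median of 0.65, and Hmgcs1 was at 42.5 and 136 (1.71). In PP-cells with insulin at that level or above (63 and 156 cells, with a median of 12428 and 36146 hormone-free UMIs), 18 of 28 were higher, against 18.8%. Ebp was the 1 member lower (54.6 and 26.2, ratio -0.96). The share of all genes lower was not computed for these cells, and the relative ratios of all genes had an SD of 0.81. Me1 was at 98.6 and 249, compared with 142 and 156 in the low-insulin PP-cells. How far shared hormones set these values was not tested.

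**Figure D3:**
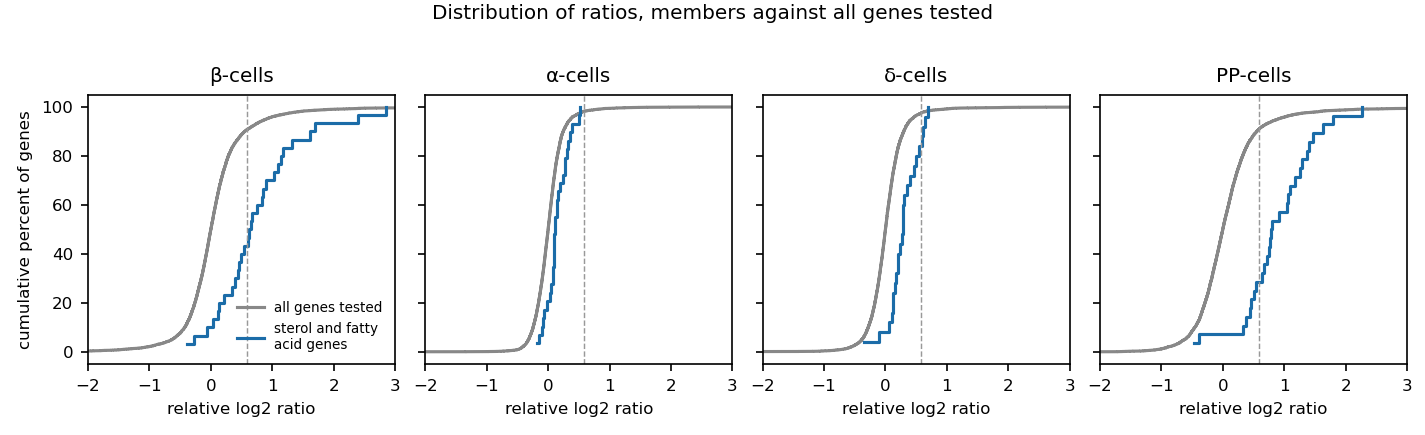
Cumulative percent of genes by relative log2 ratio (library labelled TBL/RβKO over control) in β-, α-, δ- and PP-cells, for all genes tested (grey) and the tested members (blue), with a dashed line at 1.5-fold. The blue curve lies right of the grey one throughout most of the β- and PP-cell panels, with medians of 0.64 and 0.79, and close to it in α-cells, where the median was 0.11.

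Cells outside the hormone classes had 19 of 28 tested members higher and 0 lower, against 16.7% and 15.2% of genes, with a median of 0.89. Their makeup differed between libraries: the summed level of the immune markers was 3788 and 1893 CPM, of the endothelial markers 3137 and 561 and of the stromal markers 8272 and 6712. The stromal sum was lower through Mgp alone (6971 and 4195), with Col1a1 at 433 and 821 and Dcn at 121 and 414, and among immune markers Cd79a stood at 0.331 and 181 and Cd79b at 2.65 and 109, against C1qa at 924 and 342. Mvk, Mvd, Hsd17b7 and Sc5d passed the level for a test in these cells only through the library labelled TBL/RβKO, and the part of the makeup in the ratios was not tested. Hmgcs1 stood at 38.7 and 86.2 CPM (1.13) and Cyp51 at 17.2 and 72.2 (2.05) in these cells. The sensing genes were the group with the lowest median there, 0.27, with only Srebf2 past the fold (25.5 and 65.7, ratio 1.34).

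Within β-cells the ratios were followed across bands of insulin share, since insulin differed so much between the libraries. In cells with insulin at 1 to 20% of UMIs (204 and 577 cells), 21 of 29 members were higher, against 14.2% of genes, with a median of 1.07. In cells at 20 to 40% (387 and 438 cells), 21 of 30 were higher, against 9.52%, with a median of 0.99. In cells at 40% or more (2286 and 323 cells), 21 of 32 were higher, against 6.38%, with a median of 0.78, and all 32 lay above the median gene. These 32 include Scd1, Acat2, Mvd and Tm7sf2, at 3.05, 8.48, 7.99 and 6.47 CPM in control over all β-cells. Members that pass the level only through the library in which they are high could hardly fall below the median gene. Which members did so in each band was not examined. The median cell held 9380 and 43789 hormone-free UMIs in the lowest band, 30827 and 42219 in the middle and 21255 and 28999 in the highest, so that depth was least alike where insulin was lowest. Summed non-endocrine markers were 2748 and 583 CPM in the lowest band, 320 and 596 in the middle and 191 and 699 in the highest, and the part of both in the ratios was not tested.

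**Figure D4:**
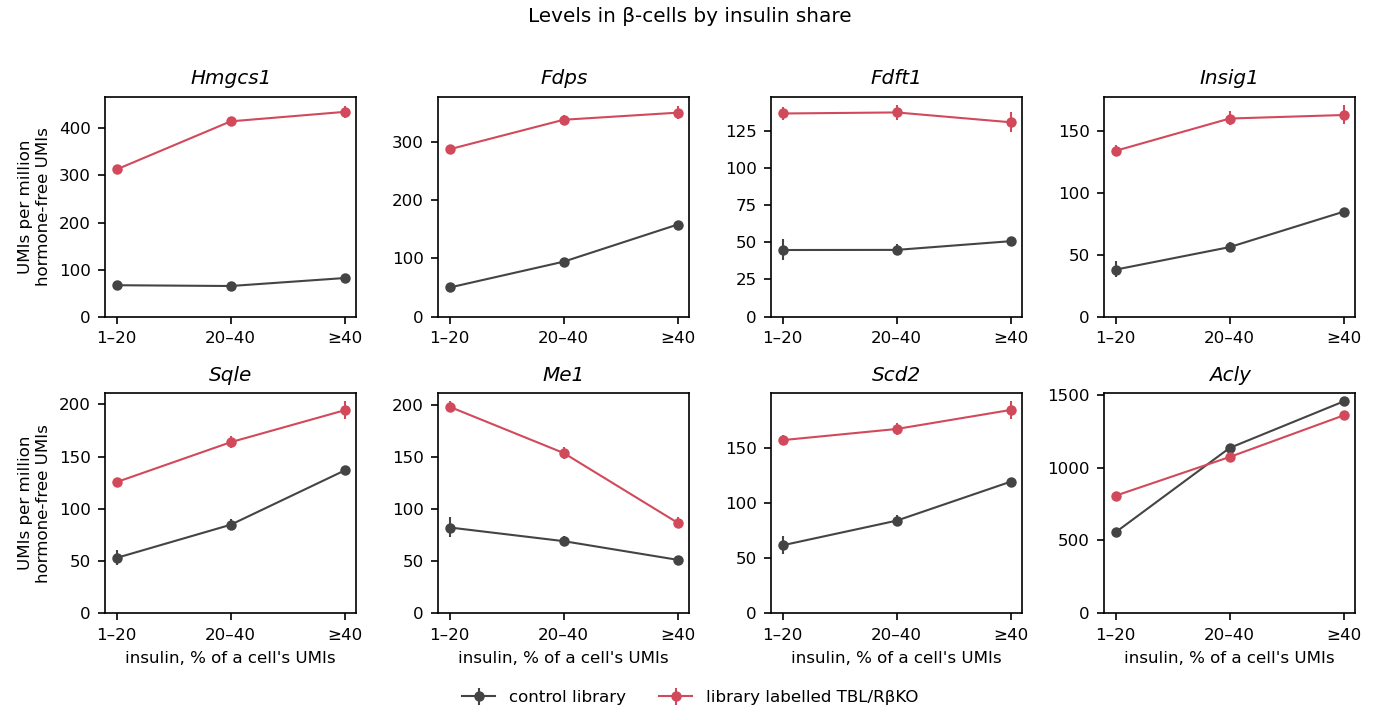
Levels of 8 members in β-cells by insulin share of each cell's UMIs, in hormone-free CPM, for the control library (grey) and the library labelled TBL/RβKO (red), with 95% Poisson intervals. The red line lies above the grey one in all 3 bands for every panel but Acly, where the lines cross.

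Hmgcs1 was 66.8 and 313 CPM in the lowest band, 65.1 and 415 in the middle and 82.1 and 435 in the highest. Its relative log2 ratios were 2.35, 2.86 and 2.57, so the library labelled TBL/RβKO was higher at each insulin share. Fdps was 49.96, 94.2 and 158 in control, higher in the bands with more insulin, and 287, 337 and 349 in the other library, so that its ratio was 2.64 in the lowest band and 1.31 in the highest. Insig1 was 38.0, 56.2 and 84.8 in control and 134, 160 and 163 in the other library.

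The genes of fatty acid synthesis followed other courses. Me1 was lower in the bands with more insulin in both libraries, at 82.3, 69.2 and 51.2 in control and 198, 154 and 86.8 in the other, with ratios of 1.39, 1.34 and 0.93. Acly ran the opposite way in both, at 557, 1140 and 1456 in control and 808, 1073 and 1360 in the other library. Its ratios within the bands were 0.66, 0.11 and 0.06, whereas over all β-cells it was -0.28, and the 2 libraries differed in how many cells fell in each band. Ebp was below 0 in the 2 lower bands (-0.43 and -0.18) and at 0.10 in the highest.

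The study kept cells under 6000 detected genes, and that limit was not used here. Members were higher in 18 of 30 under that limit (1454 and 312 cells, 10.1% of genes) and in 17 of 30 at 6000 or more (1423 and 1026 cells, 9.4%), with medians of 0.70 and 0.66. A second hormone is a mark of cells with more than 1 identity and of doublets, and members were higher in 21 of 31 with no second hormone (2409 and 525 cells, 8.48%), 17 of 29 with Gcg (232 and 145 cells, 7.5%), 19 of 30 with Sst (158 and 100 cells, 7.99%) and 21 of 30 with Ppy (78 and 568 cells, 11.5%). Members under 10 CPM in control could pass the level in these splits only through the other library, as Scd1 and Acat2 did over all β-cells. Hmgcs1 stood at 82.4 and 463 CPM in cells with no second hormone, 70.5 and 284 with Gcg, 66.4 and 407 with Sst and 47.6 and 323 with Ppy.

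Within the library labelled TBL/RβKO, β-cells with a Cre UMI were set beside those with none. Between 274 and 1064 cells, 0 of the 32 members were higher by the fold, against 0.465% of all genes, so the count was near that share. The count of members lower was also 0, and the share of all genes lower was not computed. The median of the members was 0.03. Scd1 was the largest, at 18.0 CPM without and 25.8 with a Cre UMI (0.55, inside the fold), followed by Acly at 946 and 1199 (0.37) and Pmvk (0.36). Hmgcs1 was at 361 and 406 (0.20). Cells with 0 Cre UMIs are not shown to lack Cre, and their median of hormone-free UMIs was 37150.5 against 43926.5.

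**Figure D5:**
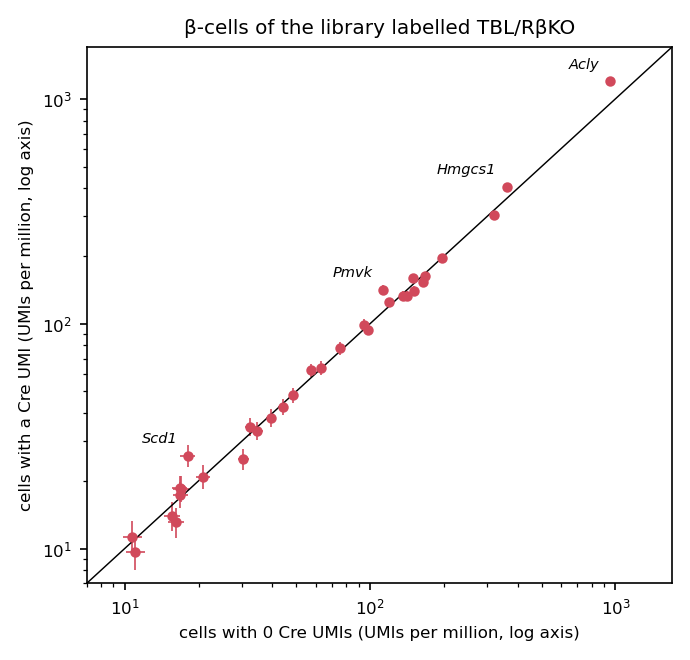
Levels of the 32 members in β-cells of the library labelled TBL/RβKO, in hormone-free CPM, in cells with 0 Cre UMIs (x axis) and with a Cre UMI (y axis), both log axes, with 95% Poisson intervals. The points lie along the line of equality, with Scd1 (18.0 and 25.8), Pmvk and Acly above it.

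Genes that handle sterols outside the synthesis arms, 19 in all, had 3 higher and 3 lower members in β-cells, beside 9.38% and 5.84% of all genes, with a median of -0.15. Abca1 and Abcg1, which export sterols, stood at 138 and 320 (1.38) and at 65.9 and 97.5 (0.72), and Scarb1, a lipoprotein receptor, at 14.0 and 24.0 (0.94). Soat1, which esterifies sterols, stood at 52.4 and 19.3 (-1.28), Nr1h3, the liver X receptor α, which passed the level only through control, at 19.5 and 8.33 (-1.07), and Lbr, a sterol reductase of the nuclear envelope, at 36.1 and 20.5 (-0.66). Of 28 tested genes of other fatty acid handling 9 were higher and 2 lower, beside the same 9.38% and 5.84%, with a median of 0.27. Thrsp, which tracks lipogenesis, stood at 1.69 and 86.1 CPM from 128 and 4953 UMIs (5.83) and, like Me3, reached the level for a test only through the library in which it is high. Pgd, which makes NADPH, stood at 36.5 and 86.3 (1.40). The citrate carrier Slc25a1 stood at 94.8 and 171 (1.01), and Acsl3, Me3 and Lpin1 had ratios of 1.03, 1.01 and 0.95. In α-cells Abca1 stood at 97.4 and 154 CPM (0.63), and Thrsp was below the level for a test (0.236 and 3.64).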

How the data were processed

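Single-cell RNA-sequencing UMIs were counted by the authors with Cell Ranger 7.1.0 on GRCm39, per the submitters' processing notes, with 2 added Cre sequences among the features. The deposited files hold raw UMI counts per gene and barcode for both libraries. As far as the values show, free RNA and doublets had not been removed. The study's own analysis, per its methods, removed ambient RNA and kept 2500 to 6000 genes and under 10% mitochondrial reads. Here the upper limit was not applied, no doublet caller was run, and cells with a second hormone were left out as an alternative. UMIs were summed per library and class in Python 3.11.15 (numpy 2.4.6, scipy 1.17.1, pandas 2.3.3, matplotlib 3.10.9). Levels carry exact Poisson and ratios exact conditional binomial 95% intervals. Genes with a mean of 10 CPM in the 2 libraries were compared with a fold of 1.5. The comparison was tested on simulated data. The members, gene lists, markers and thresholds were chosen with earlier results of these data known. All members are named, with at most 6 tested genes of each other list, those with the largest ratios in β-cells, plus Tbl1x, Tbl1xr1 and Cre. Marker genes are named beside the results they move with, and Acat3, Scd3 and Scd4 as close copies, and 1 marker is not reported here. Positions are from GENCODE M39, matched by Ensembl identifier for all 32 members, of which 11 overlap another gene on their strand. Depth limits low genes most, and for ratios a count of 0 was set at 3 UMIs.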

Additional observations from a re-analysis of the deposited data

Results flagged for a closer look

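Acly had a relative log2 ratio of -0.28 in β-cells, 0.39 in α-cells, 0.49 in δ-cells and 0.75 in PP-cells, and the differences between classes were not tested. Its sign in β-cells was not stable, being 0.02 with all UMIs as the denominator and 0.66, 0.11 and 0.06 within the bands of rising insulin share. Elovl6 was at -0.35 in δ-cells against 0.13 in β-cells, 0.14 in α-cells and 1.05 in PP-cells, again untested. Barcodes set aside by the filter on genes and mitochondrial share, which no comparison used, still held transcripts of both sterol arms. Their summed level was 677 CPM (657 to 698, 2320 barcodes) in control against 961 (936 to 986, 1654 barcodes) in the library labelled TBL/RβKO.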

How the results depend on the processing

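No paired analysis was possible because each group had 1 library and the groups share fewer than 2 replicate numbers. Of 117 values of the counts and medians under an alternative, 94 stayed within the limits set, 20 moved and 3 turned sign. In β-cells 13 of the 17 higher members stayed past the fold in every alternative chosen at the outset, the exceptions being Sc5d, Dhcr7, Insig2 and Fasn, against 10 of 20 in PP-cells and 0 of 4 in δ-cells. The β-cell median was 0.48 without subtraction of the median and 0.96 with all UMIs as the denominator. In α-cells the higher count was 2 of 28 with all UMIs as the denominator, against 2.69% of genes, and 1 of 32 with a filter at 1 CPM, against 4.11%. The α-cell median was 0.0048 under 6000 genes and 0.019 with a hormone limit of 1000. In δ-cells the higher count was 0 under 6000 genes, with the limit of 1000, with a second hormone under 10%, with equal weight per cell and with mitochondrial UMIs under 5%. The shares of all genes higher were 2.39%, 4.18%, 8.4%, 2.03% and 2.26% in that order. Under the first 3 of these alternatives the lower count was 1, 2 and 3, against 2.55%, 3.96% and 7.37% of genes lower. The δ-cell median was there -0.089, -0.047 and -0.011, and Hmgcs1 -0.00067, -0.047 and -0.067, with Fdps at -0.089 under 6000 genes. In PP-cells the median was 1.22 with all UMIs, 0.62 under 6000 genes, 0.63 with the limit of 1000 and 0.57 with a second hormone under 10%. The higher count was 13 under the last of these, against 4.44% of genes, and the lower count was 1 under 6000 genes, against 4.01%. Subtraction of free RNA (1.61% and 1.40% of UMIs) moved no member value beyond those limits. That share was set from the hormone UMIs of cells outside the hormone classes, with the summed profile of all barcodes. Those cells were chosen for low hormone, which keeps the share small, and so small a share could hardly move a value. The part of free RNA in the ratios was therefore not tested. The alternatives with PP-cells under 100 insulin UMIs per 10000 and with cells of 0 Cre UMIs were chosen after seeing the data. The cause of these differences was not tested. A library per group gives no spread between mice, counting intervals are the only error, and genes under 10 CPM were not compared.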
